A study of Mus musculus with 10 samples.

Results

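Splenic dendritic cells (DCs) from mice that lack both receptors for the complement peptides C3a and C5a (C3ar1-/-C5ar1-/-, here DKO) were compared with DCs from wild-type (WT) mice in the unstimulated state, across all genes measured. The comparison uses every array whose source label names unstimulated DCs of either genotype, which is 4 of the 10 arrays: 2 of WT DCs and 2 of DKO DCs. A gene enters as its probe set with exactly 1 gene symbol, taking the brightest over the 10 arrays where there are several, which gave 22180 genes. Of these, 13371 exceeded the array median in at least 2 of the 10 arrays and were tested.

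Each array held RNA of CD11c+ spleen cells, selected with magnetic beads, hybridised to an Affymetrix Mouse Gene 2.0 ST array. The unstimulated mice had received vehicle 4 h before the cells were taken. The other 6 arrays, 3 of each genotype, came from mice given 100 µg CpG, an unmethylated DNA sensed by Tlr9, for the same time. Neither agent differs between the genotypes compared here, and both genotypes carry the same vehicle treatment. Not given in the sources used here were the strain, age and sex of the mice, the number of mice behind an array and how the null alleles were combined. A germline null allele acts in every cell of the mouse, so the DCs also developed in a host without both receptors. Replicates are separate samples per the labels, with no statement that they came from separate mice, so that p-values measure only the spread between these samples.

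C3a and C5a are released when complement is activated, and their receptors C3ar1 and C5ar1 are G protein-coupled receptors found on myeloid cells. C5ar1 is found on neutrophils most of all. C5ar2 is a second C5a receptor that does not couple to G proteins. DCs take up antigen and present it to T cells. CD11c, encoded by Itgax, is carried by DCs and also by red pulp macrophages and some monocytes, so a bead isolate can hold several cell types. In RNA from such an isolate, fewer cells of a type and less RNA per cell cannot be told apart.

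One gene, Gm15448, passed the test at rest. It lies on chromosome 7 among the paired immunoglobulin-like receptor genes, a family of activating and inhibitory receptors of myeloid cells to which its neighbour Pirb also belongs. Its promoter and that of Pirb are shown because their letters are nearly the same. That likeness does not show whether the probes tell the transcripts apart, since the bases that the probes match are not given. Promoters of S100a8 and Mmp8, which encode neutrophil proteins, are shown because S100a8 had the largest difference of any neutrophil marker and Mmp8 holds the same letters. All are RefSeq windows from 250 bases before to 50 bases after the start of the gene on GRCm38.p6, and no such window was used for any measurement. Capitals mark the letters GAGGAAGT, the core bound by the myeloid factor PU.1, or their reverse complement ACTTCCTC. They also mark a loose form of the site bound by NF-kB, which is GGGA, any 4 bases and CC. Both strands were searched, and the motifs do not overlap in these windows. Gm15448 is at chr7:3825711-3826010 and Pirb at chr7:3720333-3720632, both on the minus strand. S100a8 is at chr3:90668821-90669120 and Mmp8 at chr9:7558179-7558478, both on the plus strand.
Gm15448: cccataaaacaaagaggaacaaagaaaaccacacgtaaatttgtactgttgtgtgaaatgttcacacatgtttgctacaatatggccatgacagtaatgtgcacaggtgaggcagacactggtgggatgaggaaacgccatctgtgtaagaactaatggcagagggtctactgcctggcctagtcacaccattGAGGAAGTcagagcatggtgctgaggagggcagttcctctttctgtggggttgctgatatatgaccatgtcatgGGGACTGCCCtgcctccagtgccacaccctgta
Pirb: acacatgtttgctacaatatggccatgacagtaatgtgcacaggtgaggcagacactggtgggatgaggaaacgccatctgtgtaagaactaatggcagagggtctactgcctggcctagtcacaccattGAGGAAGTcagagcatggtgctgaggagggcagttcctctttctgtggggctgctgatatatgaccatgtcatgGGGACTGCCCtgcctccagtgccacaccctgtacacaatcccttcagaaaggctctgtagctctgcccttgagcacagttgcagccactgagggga
S100a8: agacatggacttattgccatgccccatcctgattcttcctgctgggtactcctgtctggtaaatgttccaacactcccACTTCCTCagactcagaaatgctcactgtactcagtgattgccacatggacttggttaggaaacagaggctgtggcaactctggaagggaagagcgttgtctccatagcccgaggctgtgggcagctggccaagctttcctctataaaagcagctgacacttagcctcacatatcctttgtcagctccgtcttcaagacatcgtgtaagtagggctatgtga
Mmp8: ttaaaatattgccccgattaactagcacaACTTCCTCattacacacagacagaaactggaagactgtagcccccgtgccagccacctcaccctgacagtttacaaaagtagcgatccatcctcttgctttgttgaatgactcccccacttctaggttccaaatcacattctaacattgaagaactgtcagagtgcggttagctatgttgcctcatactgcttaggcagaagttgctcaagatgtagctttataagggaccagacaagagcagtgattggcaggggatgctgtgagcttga

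Laid over each other without gaps, the Gm15448 and Pirb windows shared 237 positions, of which 236 were identical (99.6%) and 1 differed. The S100a8 and Mmp8 windows gave 31.6% identity at their best offset. The PU.1 letters stood on either strand in 5 of the 26 tested neutrophil markers with a window (19.2%) and in 3.7% of all 27025 genes with one. Of the 9 neutrophil markers with a window that were lower at an unadjusted p under 0.05, only the 2 shown, S100a8 and Mmp8, held them. Among tested genes of the leukocyte receptor complex it was 1 of 17 (5.9%). The NF-kB letters occurred in 22.9% of all genes. A match describes the letters in a window and is no evidence of binding.

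Before the comparison, the 4 arrays differed in ways that the genotype labels do not give. Over the tested genes the 2 WT arrays correlated at r = 0.9874 (across genes, which are not independent replicates), with an SD of their differences of 0.243 on the log2 scale. The 2 DKO arrays correlated at 0.9734, with an SD of 0.353. DKO unstimulated 1 lay at least 1 below the WT mean for 38 genes (0.284%) and DKO unstimulated 2 for 256 genes (1.91%). Sex-linked genes separated the DKO arrays from each other. Eif2s3y, a Y-linked translation factor, measured 2.98 and 2.99 in the WT arrays, 8.96 in DKO unstimulated 1 and 3.02 in DKO unstimulated 2. Xist, the RNA of the inactive X chromosome, measured 10.70 and 10.85 in the WT arrays, 4.61 in DKO unstimulated 1 and 10.80 in DKO unstimulated 2. The array titles carry running numbers, and no label says what they stand for. Splitting them at 20 is a choice made here, as a stand-in for a batch that the labels mention without assigning samples to it, and the 2 sides are called title series. DKO unstimulated 2 is numbered above 20 and the other 3 arrays at rest below, so this split is partly confounded with genotype, and results are given with each DKO array's own value.

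The isolates of both genotypes carried the defining markers of DCs. Itgax measured 11.57 and 11.75 in WT and 11.89 and 11.85 in DKO (log2 intensity throughout). Flt3, the growth factor receptor of DCs, measured 10.33 and 10.38 in WT and 10.41 and 10.59 in DKO. Zbtb46, a transcription factor of conventional DCs, measured 7.84 and 8.08 against 8.08 and 8.18, and the MHC class II gene H2-Ab1 lay between 13.57 and 13.65 in all 4 arrays. Over the 20 tested core DC markers the median difference, DKO minus WT, was 0.14, beside 0.01 over all tested genes, and no member passed the test. Of the 20 differences, 16 were above 0, beside 6942 of all 13371 tested genes. Both DKO arrays lay above both WT arrays for 8 of the 20 and below for 1, beside 18.3% and 15.9% of all genes.

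Gm15448 is a predicted gene, named here after its values were seen. It measured 8.81 and 8.90 in WT and 4.30 and 4.03 in DKO, where it lay below the array medians of 5.50 to 5.56. The nearest arrays of the groups differed by more than 4. In limma's fit it fell by 4.69 ± 0.19 (SE) on the log2 scale (95% interval of the log2 difference -5.11 to -4.27, adjusted p = 1.56e-06). No detection calls were used and the DKO values may be background signal, so no fold is given. It was the only call among 13371 genes (0.00748%), with no gene called higher (0%). A probe set with several symbols also covers this gene, together with Lilra6, Pira1, Pira2 and Gm14548. Its values are not given here. Of 1030 tested probe sets with several symbols, 0 were called higher and 0 lower at rest, so that probe set was either not called or not tested. Probes of such near-identical copies may respond to more than 1 of them, so the identity of the transcript is uncertain. After CpG the difference was also called, at -3.51 ± 0.15 (adjusted p = 3.81e-06), in 6 arrays that share none with the comparison at rest.

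**Figure D1:**
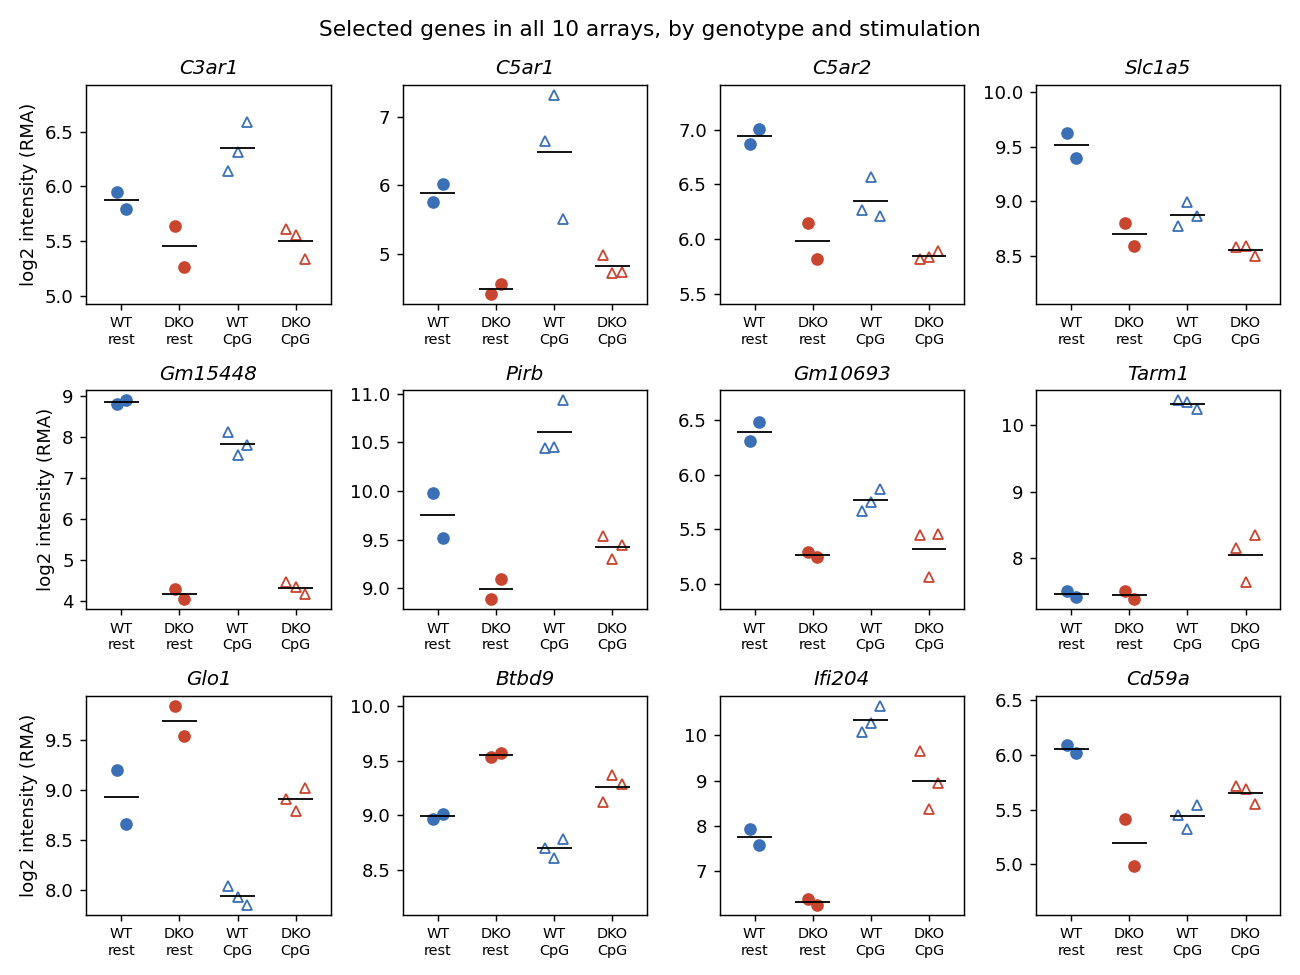
Log2 intensity (RMA) of 12 genes in all 10 arrays, 1 point per array, with filled circles at rest, open triangles after CpG, blue for WT, red for DKO and a bar at each group mean. The y axis differs between panels and does not start at 0, and spans at least 2. Gm15448 lies between 4.03 and 4.46 in all 5 DKO arrays and between 7.55 and 8.90 in the WT arrays, while Tarm1 is alike at rest and apart after CpG.

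Other genes of the same stretch of chromosome 7 were read beside it. Gm10693, also a predicted gene named after its values were seen, stands 2 positions from Gm15448 in the gene order. It measured 6.31 and 6.48 in WT and 5.29 and 5.25 in DKO, a difference of -1.12 ± 0.16, and had the next smallest adjusted p (0.159, limma), so it did not pass. Pirb, an inhibitory receptor that binds MHC class I, measured 9.98 and 9.52 in WT and 8.89 and 9.10 in DKO (-0.76 ± 0.20, adjusted p = 0.862). Both DKO arrays were below both WT arrays for each of these genes. Leng9 measured 6.92 and 7.03 in WT and 7.30 and 7.45 in DKO, a difference of 0.40 in the other direction. Tarm1, a myeloid receptor of this complex, measured 7.51 and 7.43 in WT and 7.51 and 7.39 in DKO, a difference of -0.02 ± 0.20. After CpG, Tarm1 was called lower in DKO by -2.27 ± 0.16, and it was the only gene for which the 2 genotype differences themselves differed (interaction -2.25, adjusted p = 0.049, 1 of 13371 genes, 0.00748%). When each of the 10 arrays was left out in turn, Tarm1 lost that call in 8 settings. Of the 18 tested genes of the leukocyte receptor complex, 6 lay lower in both DKO arrays than in both WT arrays and 3 higher, beside 15.9% of all tested genes lower (2125) and 18.3% higher (2452). The median difference over the 18 was -0.04.

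Neither targeted receptor passed the test at rest. C3ar1 measured 5.95 and 5.80 in WT and 5.64 and 5.27 in DKO, a difference of -0.42 ± 0.18 (interval -0.82 to -0.02, adjusted p = 0.992). C5ar1 measured 5.75 and 6.02 in WT and 4.42 and 4.56 in DKO, a difference of -1.39 ± 0.42 (interval -2.33 to -0.46, adjusted p = 0.904). The groups did not overlap for either gene, and the DKO values of C5ar1 were below the array medians. With the 4 arrays at rest alone C5ar1 passed at the same difference (adjusted p = 0.0484), and once the level of the neutrophil markers entered the model, the C5ar1 difference was -0.53. Whether the probes lie in the deleted parts is not stated, and therefore these values do not check the labels. The WT intensity of both receptors was within 0.6 of the array medians, which limits how far a loss can be seen.

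C5ar2 had the smallest p among genes lower in DKO other than the predicted genes Gm15448 and Gm10693. It measured 6.873 and 7.004 in WT and 6.15 and 5.81 in DKO, a difference of -0.96 ± 0.16 (unadjusted p = 1.02e-04, adjusted p = 0.28), and it is 2 positions from C5ar1 on chromosome 7. Averaged over rest and CpG it was called, at -0.73 ± 0.10 (adjusted p = 0.0315). Slc1a5, a glutamine transporter 20 positions on the other side, measured 9.63 and 9.39 in WT and 8.80 and 8.60 in DKO (-0.81 ± 0.14, adjusted p = 0.28), while its other, dimmer probe set gave -0.30. The closer genes Sae1, which activates SUMO, and Tmem160, a mitochondrial protein, lay the other way. Sae1 measured 8.13 and 8.37 in WT and 9.05 and 8.58 in DKO (0.56), and Tmem160 measured 7.85 and 7.64 against 8.18 and 8.31 (0.50). Ppp5c, a phosphatase 36 positions away, had a difference of -0.44. Within 40 genes on each side of C5ar1, 29 genes were tested and 2 were higher and 3 lower at an unadjusted p under 0.05, beside 4.63% of all tested genes (619), made up of 2.09% higher (279) and 2.54% lower (340). The median size of the difference was 0.13 in that window and 0.12 over all genes. None passed the adjusted threshold.

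Around C3ar1, on chromosome 6, 20 genes were tested within 40 positions. At an unadjusted p under 0.05, 2 were higher and 4 lower, beside 2.09% and 2.54% of all tested genes. The median size of the difference was 0.22, beside 0.12 over all genes. The 4 lower genes are C-type lectins of a cluster beside C3ar1. Other tested members of that cluster did not reach that threshold. Clec4b1 (-0.58), Clec4a2 (-0.17), Clec4a1 (-0.16) and Clec4b2 (-0.03) were below 0, and Clec4a4 (0.43) was above. Clec4d and Clec4e encode receptors for microbial and damaged-cell glycolipids and are counted here as neutrophil markers. Clec4d, 12 positions away, measured 7.82 and 8.25 in WT and 5.01 and 3.82 in DKO (-3.62 ± 0.96, adjusted p = 0.862). Clec4e, 13 positions away, measured 8.66 and 9.34 in WT and 6.48 and 4.95 in DKO (-3.29 ± 0.88, adjusted p = 0.862). Clec4n, which encodes the fungal receptor dectin-2, measured 10.90 and 10.25 against 9.79 and 8.76 (-1.30). Clec4a3 had a difference of -0.57, with 10.091 and 9.841 in WT and 9.778 and 9.005 in DKO. Klrg1, an inhibitory lymphocyte receptor, and Slc6a12, a betaine transporter, lay higher in DKO by 0.73 and 0.60. Clec4d and Clec4e lay low in the same arrays as the neutrophil markers in general, whose mean level was 7.25 and 7.56 in WT and 6.48 and 6.12 in DKO. That mean includes Clec4d and Clec4e themselves, so the likeness is partly built in. The part of other cells in these values was not tested.

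**Figure D2:**
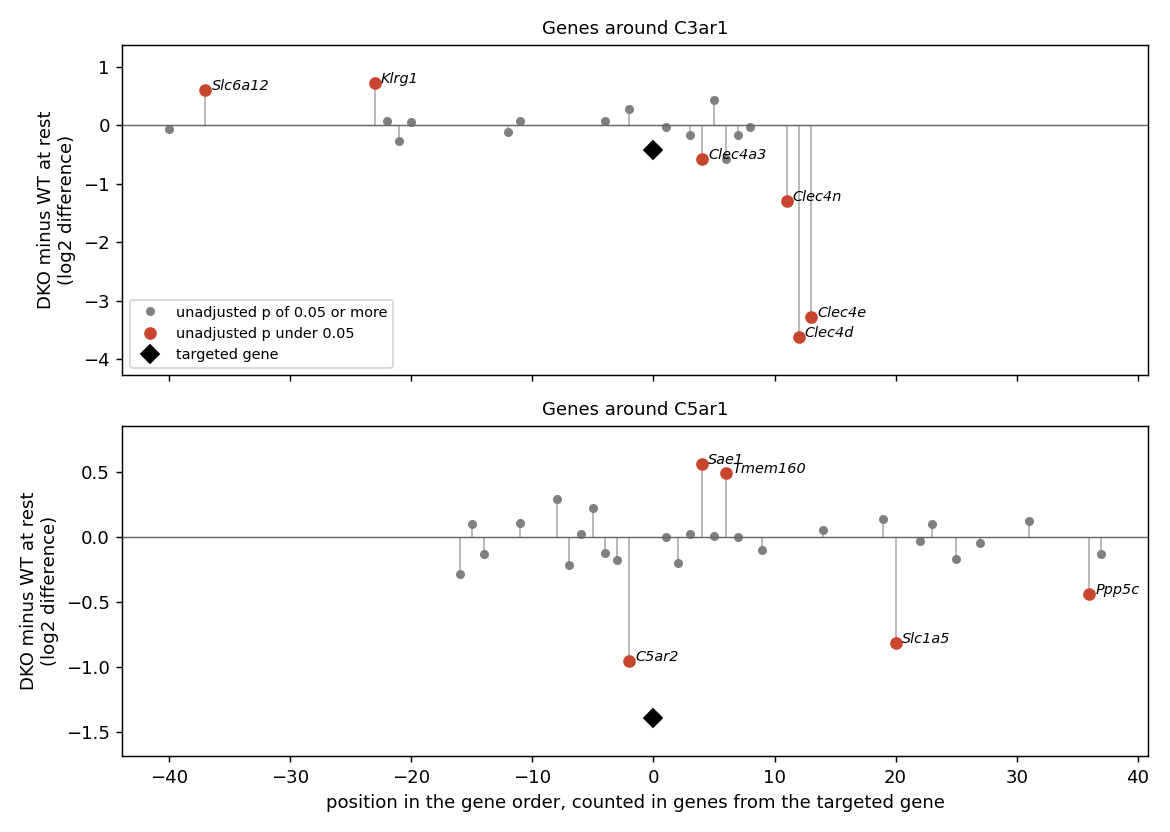
Log2 difference DKO minus WT at rest (y axis) of the tested genes within 40 positions of C3ar1 (upper) and C5ar1 (lower), against the position in the gene order counted from the targeted gene (black diamond). Red points have an unadjusted p under 0.05, and the y axes differ. Clec4d and Clec4e reach -3.62 and -3.29 beside C3ar1, while the red points around C5ar1 lie on both sides of 0.

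Over the chromosomes, genes at an unadjusted p under 0.01 made up 1.04% of those tested (139). Chromosome 6 held 18 among 681 (2.64%) and chromosome 7 held 25 among 1078 (2.32%), with 16 of the 25 lower in DKO. These shares are descriptions, since neighbouring genes are not independent. Away from the targeted loci, 3 tested genes of the Glo1 segment on chromosome 17 were higher in DKO and did not pass. Glo1, which detoxifies methylglyoxal, measured 9.19 and 8.66 in WT and 9.84 and 9.53 in DKO (0.76 ± 0.18, adjusted p = 0.85). Dnah8, a dynein heavy chain, measured 4.95 and 5.17 against 5.86 and 5.93 (0.83 ± 0.13, adjusted p = 0.232). Btbd9 measured 8.97 and 9.02 against 9.53 and 9.57 (0.56 ± 0.13, adjusted p = 0.757). The groups did not overlap for any of the 3.

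Averaged over rest and CpG, 13 genes were called (0.0972%), and for 11 of them the DKO arrays at rest did not overlap the WT arrays at rest. Those arrays are part of the average that chose the 13 genes, and 15.9% of all tested genes lay lower without overlap and 18.3% higher, so nothing is read from that count. They include Gm15448, Pirb, C5ar2, Tmem160, Glo1, Btbd9 and Dnah8 above. Abca3, a lipid transporter, measured 8.13 and 8.33 in WT and 8.71 and 8.62 in DKO at rest, a difference of 0.43 that did not pass there and was 1.25 after CpG. Gp2, a bacterial uptake receptor, measured 7.60 and 7.21 in WT and 6.66 and 6.95 in DKO (-0.60 at rest, -1.24 after CpG). Gm1965 measured 6.94 and 6.73 in WT and 5.84 and 6.12 in DKO (-0.86 at rest, -0.81 after CpG). Abca3, Gp2 and Gm1965 were named after their values were seen. The averaged comparison kept 1 of its 13 calls without DKO unstimulated 1, DKO unstimulated 2, WT unstimulated 2, WT CpG 1 or WT CpG 2, each left out alone, 2 without WT unstimulated 1 and 4 without DKO CpG 2. It had 71 calls without DKO CpG 1 and 35 without WT CpG 3.

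Of the 28 tested neutrophil markers, none passed the adjusted threshold, 10 were lower and 1 higher at an unadjusted p under 0.05, beside 2.54% and 2.09% of all tested genes. In both DKO arrays 18 of the 28 lay lower than in both WT arrays, beside 15.9% of all tested genes (2125). Their median difference was -0.62, with -0.38 in DKO unstimulated 1 and -0.78 in DKO unstimulated 2. It was -0.17 with title series as a block. The members furthest apart encode secreted or surface proteins of mature neutrophils. S100a8, a subunit of the abundant calcium-binding dimer of neutrophils, measured 9.20 and 9.82 in WT and 6.60 and 4.40 in DKO (-4.01 ± 1.20, adjusted p = 0.904). Its partner S100a9 measured 8.77 and 9.28 against 6.67 and 6.21 (-2.58 ± 0.80). The DKO arrays were more than 2 below the WT arrays for both genes.

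Retnlg, a secreted resistin-like protein, measured 7.10 and 7.60 in WT and 4.61 and 4.17 in DKO (-2.96 ± 0.74, adjusted p = 0.862). Cxcr2, the receptor through which neutrophils follow CXC chemokines, measured 7.940 and 8.564 against 5.997 and 5.117 (-2.70). Mmp8, the neutrophil collagenase, measured 6.44 and 6.91 against 4.67 and 4.78 (-1.95). The groups were apart by more than 1 for each. Csf3r, the receptor for the neutrophil growth factor G-CSF, measured 9.44 and 10.13 in WT and 8.42 and 7.63 in DKO (-1.76). Hdc, which makes histamine, had a difference of -1.63, and Wfdc21, a secreted protease inhibitor, of -1.31. Pglyrp1, a peptidoglycan-binding granule protein, went the other way, with 9.35 and 9.17 in WT and 9.81 and 10.45 in DKO (0.87).

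Among other defining neutrophil genes, Mpo, Elane and Mmp9 differed by at most 0.25 in either direction. Ly6g, the standard surface marker, lay between 4.40 and 4.60, below the array medians, and was not tested. Mpo, the granule peroxidase, lay between 5.30 and 5.60, and Elane, the granule elastase, between 5.41 and 5.68. Mmp9 measured 7.63 and 8.51 in WT and 7.60 and 8.04 in DKO, so its groups overlapped. Left out alone, DKO unstimulated 1, DKO unstimulated 2, WT unstimulated 1 and WT unstimulated 2 gave list medians of -0.78, -0.38, -0.91 and -0.41. 1 of the 28 also stands in another marker list. Whether fewer neutrophils in the isolate account for these values was not tested.

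A set of 24 genes had groups at least 1 apart at rest, 22 lower in DKO (0.165% of tested genes) and 2 higher (0.015%). They were named after their values were seen. Of the 22, 10 are neutrophil markers, and the others include Gm15448, Gm10693 and C5ar1. Il1f9, which encodes the epithelial and myeloid cytokine IL-36 gamma, measured 7.70 and 8.56 in WT and 4.39 and 4.07 in DKO (-3.90 ± 1.05, adjusted p = 0.862). Acod1, which makes itaconate in activated myeloid cells, measured 8.14 and 8.89 against 5.89 and 5.70 (-2.72 ± 0.97). Thbs1, which encodes the matrix protein thrombospondin 1, measured 8.18 and 8.39 against 5.68 and 5.60 (-2.65 ± 0.70). Hp, which encodes the haemoglobin-binding protein haptoglobin, measured 7.21 and 7.13 against 5.28 and 5.33 (-1.87), and G0s2, a lipase inhibitor, had a difference of -1.56. All 22 had a negative difference in the separate arrays after CpG as well. Of all tested genes, 57.4% had the same sign in both conditions. For 9 of the 22 the DKO arrays were below the WT arrays after CpG. The share of all tested genes apart in that way after CpG is not given, so nothing is read from the 9.

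The 2 higher genes are immunoglobulin kappa variable segments, Igkv1-133 (6.18 and 5.64 in WT, 8.74 and 8.66 in DKO) and Igkv9-120 (7.33 and 6.76 in WT, 8.58 and 10.29 in DKO). Their differences were 2.79 and 2.39 at rest and -0.66 and -0.06 after CpG. Bank1, a B cell adaptor, was by contrast lower in DKO at rest, at 10.08 and 10.03 in WT and 9.52 and 9.46 in DKO (-0.57). The 25 tested B cell markers had a median difference of 0.07, with 12 below 0 and 13 above, beside 6429 and 6942 of all 13371 tested genes.

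**Figure D3:**
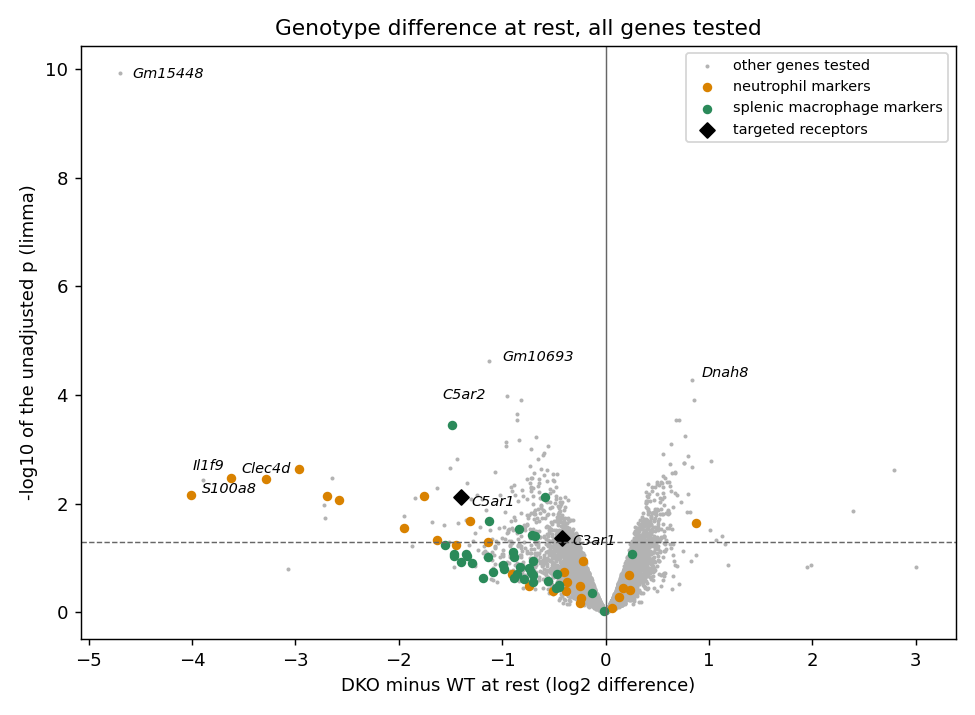
Log2 difference DKO minus WT at rest (x axis) against -log10 of limma's unadjusted p (y axis) for the 13371 genes tested, with neutrophil markers in orange, splenic macrophage markers in green and the targeted receptors as diamonds. The dashed line marks an unadjusted p of 0.05. Gm15448 stands alone at the top left, and the neutrophil markers with differences below -2 have larger p than genes with smaller but tighter differences.

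Splenic macrophage markers separated the 2 DKO arrays. Over the 37 tested members the median difference was -0.84, with -0.19 in DKO unstimulated 1 and -1.57 in DKO unstimulated 2. Of the 37 differences, 36 were below 0, beside 6429 of all 13371 tested genes. None passed, and 6 were lower at an unadjusted p under 0.05, beside 2.54% of all tested genes. In both DKO arrays 23 of the 37 lay lower than in both WT arrays, beside 15.9% of all tested genes. The list median was -0.43 with title series as a block. DKO unstimulated 1 was at least 1 below the WT mean for 1 of the 37 and DKO unstimulated 2 for 28. Csf1r, the receptor for the macrophage growth factor, measured 11.52 and 11.79 in WT, 11.54 in DKO unstimulated 1 and 9.77 in DKO unstimulated 2. Cd5l, a macrophage survival protein, measured 9.16 and 8.89 in WT, 8.77 and then 6.69. The iron exporter Slc40a1 measured 11.26 and 11.76, 10.98 and 9.11, and the chemokine receptor Ccr3 measured 10.06 and 10.27, 9.67 and 7.71. Only DKO unstimulated 2 was more than 0.6 below the lower WT array for these 4 genes.

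Among the macrophage-list genes with the smallest p were Apoe, Actn1 and Pparg, each lower in both DKO arrays. Apoe, a lipid carrier, measured 8.23 and 7.65 in WT and 6.89 and 6.02 in DKO (-1.48 ± 0.29, unadjusted p = 3.59e-04, adjusted p = 0.436). Actn1, which crosslinks actin, measured 10.12 and 10.23 against 9.85 and 9.33 (-0.59). Pparg, a lipid-sensing nuclear receptor, measured 8.66 and 8.37 against 8.06 and 6.72 (-1.12). Iron-handling genes followed DKO unstimulated 2, with medians over 16 members of -0.09 and -0.90 in the 2 DKO arrays. Adamdec1, a metalloprotease of macrophages and DCs named by its p, measured 9.46 and 9.57 in WT and 8.42 and 7.60 in DKO (-1.50 ± 0.37, adjusted p = 0.862). The count of calls was 1 again when the second DKO array was left out.

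**Figure D4:**
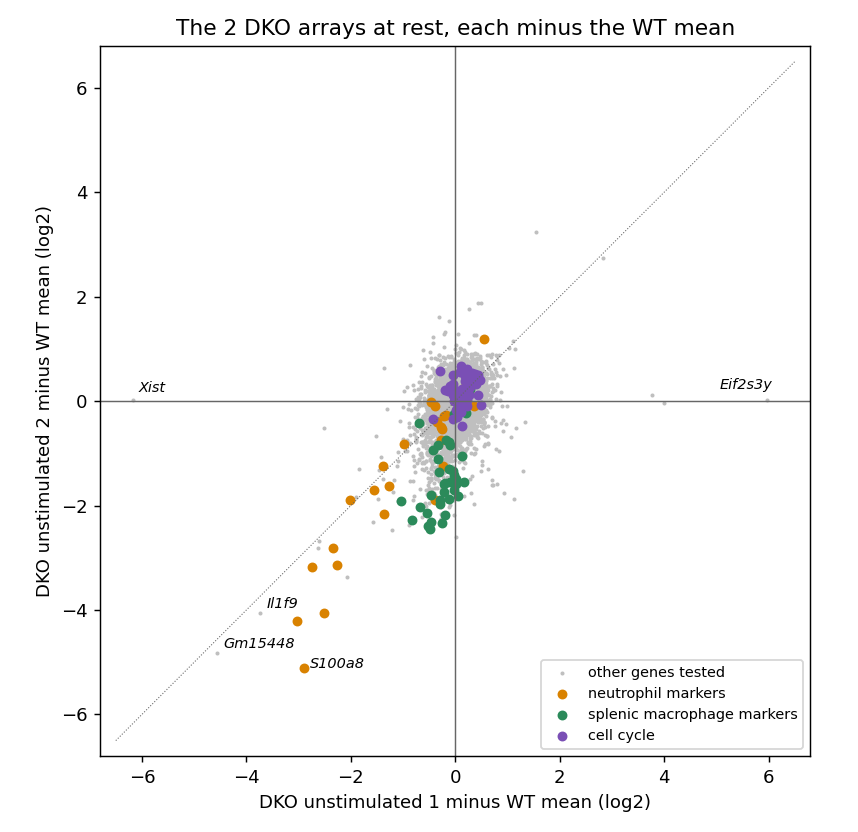
Log2 difference from the WT mean at rest in DKO unstimulated 1 (x axis) and DKO unstimulated 2 (y axis), 1 point per tested gene, with the dotted line marking equal values. Neutrophil markers (orange) spread along that line, macrophage markers (green) drop in DKO unstimulated 2 with a median of -1.57 against -0.19, and Eif2s3y and Xist move in DKO unstimulated 1 alone.

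Genes of complement itself were read from a list of 20 tested members. It had a median difference of -0.41 (-0.20 and -0.62 in the 2 DKO arrays). Of the 20 differences, 18 were below 0, beside 6429 of all 13371 tested genes. At an unadjusted p under 0.05, 4 members were lower, beside 2.54% of all tested genes. They were the targeted genes C3ar1 and C5ar1, with C5ar2 and Cd59a. Cd59a, which protects cells from the complement membrane attack complex, measured 6.09 and 6.02 in WT and 5.41 and 4.99 in DKO (-0.85 ± 0.16, unadjusted p = 2.19e-04, adjusted p = 0.391). The C1q genes also stand in the macrophage list. Over 51 G proteins and kinases of receptor signalling the median was 0.05, and no member reached an unadjusted p under 0.05 in either direction.

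Interferon-stimulated genes, which restrict viruses, had a median difference of -0.18 over 55 tested members, with 43 below 0, beside 6429 of all 13371 tested genes. At an unadjusted p under 0.05, 3 of the 55 were lower, beside 2.54% of all tested genes. Both DKO arrays lay below both WT arrays for 19 of the 55 and above for 0, beside 15.9% and 18.3% of all tested genes. None was called. Ifi204, a cytosolic DNA sensor, measured 7.92 and 7.56 in WT and 6.36 and 6.24 in DKO (-1.44 ± 0.34, adjusted p = 0.819). Ifi205, a related gene high in cDC1, measured 10.77 and 10.84 against 10.20 and 9.95 (-0.73 ± 0.18). The groups did not overlap for either. Oas1g, which makes the activator of RNase L, had a difference of -0.91, with 7.56 and 7.11 in WT and 6.78 and 6.06 in DKO. Oasl1, a relative without that activity, measured 7.78 and 7.29 against 6.84 and 6.42 (-0.91). GAAA, any 2 bases and GAAA, a loose form of the interferon response element, stood on either strand in 61.9% of the 42 listed genes with a promoter window and in 4.0% of all genes.

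Cytokine and chemokine genes held no call. Il1rn, the antagonist of IL-1, measured 8.55 and 8.10 in WT and 7.59 and 7.14 in DKO (-0.96 ± 0.20, unadjusted p = 7.31e-04, adjusted p = 0.652). Csf1, the macrophage growth factor, measured 7.47 and 7.98 against 6.85 and 6.20 (-1.20). Cxcl2, which draws neutrophils through Cxcr2, measured 8.26 and 9.15 against 7.48 and 6.24 (-1.84 ± 0.56). Both DKO arrays were below both WT arrays for all 3. Ccl3, a chemokine for monocytes and T cells, had a smaller and tighter difference, with 11.10 and 10.89 in WT and 10.53 and 10.54 in DKO (-0.46 ± 0.18). Over the 25 tested chemokines the median was -0.24, with 21 below 0, beside 6429 of all 13371 tested genes. Among 30 chemotactic receptors, S1pr3, a sphingosine 1-phosphate receptor, measured 6.12 and 6.35 against 5.46 and 4.88 (-1.07).

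Of 51 tested cell cycle genes, 40 differences were above 0, beside 6942 of all 13371 tested genes. Their median was 0.14 (0.10 and 0.19 in the 2 DKO arrays), beside 0.01 over all genes. At an unadjusted p under 0.05, 6 were higher and none lower, beside 2.09% and 2.54% of all tested genes. None passed the adjusted threshold. The 6 were Aurkb, Prc1, Ube2c, Ccnb2 and Cenpe, which act in mitosis, and E2f8, a repressor of genes for DNA replication. Aurkb, a mitotic kinase, measured 8.43 and 8.17 in WT and 8.74 and 8.81 in DKO (0.47 ± 0.16). Prc1, which bundles microtubules during cytokinesis, measured 7.13 and 6.98 against 7.41 and 7.50 (0.39 ± 0.13). Ube2c, a conjugating enzyme of mitotic exit, measured 7.44 and 7.27 against 7.83 and 7.76 (0.44 ± 0.16). These differences were at most 0.47. Depdc1a, a mitotic gene outside the list, measured 6.54 and 6.33 in WT and 7.09 and 7.32 in DKO (0.77 ± 0.16, adjusted p = 0.6).

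DC subset markers held no call. Of 25 tested cDC1 markers, the subset that cross-presents antigen, 23 were below 0 with a median of -0.23 (-0.07 and -0.39 in the 2 DKO arrays), and 3 were lower at an unadjusted p under 0.05. Over all tested genes, 6429 of 13371 were below 0 and 2.54% were lower at that threshold. Cd8a measured 9.19 and 9.29 in WT and 8.95 and 8.59 in DKO (-0.47), and the scavenger receptor Cd36 measured 9.06 and 9.10 against 8.88 and 8.29 (-0.50). The chemokine receptor Xcr1, which defines the subset, lay between 7.87 and 8.10 in all 4 arrays. Among 23 cDC2 markers the median was 0.09, and Tbx21, a transcription factor, measured 7.58 and 7.55 against 7.96 and 8.27 (0.55). Plasmacytoid DC markers had a median of 0.03 over 21 members.

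Maturation markers held no call. The costimulatory genes Cd80 and Cd86 lay between 9.97 and 10.15 and between 11.47 and 11.74 in the 4 arrays. Over 33 costimulation genes the median was -0.12, with 26 below 0, beside 6429 of all 13371 tested genes. Pdcd1lg2, which encodes the T cell inhibitor PD-L2, was higher in DKO, at 6.95 and 6.78 in WT and 7.35 and 7.73 in DKO (0.68 ± 0.17, adjusted p = 0.862). Cflar, an inhibitor of caspase 8 and NF-kB target, measured 9.12 and 9.15 in WT and 8.65 and 8.67 in DKO (-0.47 ± 0.12, adjusted p = 0.862). Tlr9, the receptor of CpG, lay between 9.77 and 9.87. Ticam2, an adaptor of Tlr4, measured 6.46 and 6.51 against 6.80 and 6.97 (0.40). Fosb, an immediate-early transcription factor, measured 11.76 and 11.96 against 12.26 and 12.23 (0.39).

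**Figure D5:**
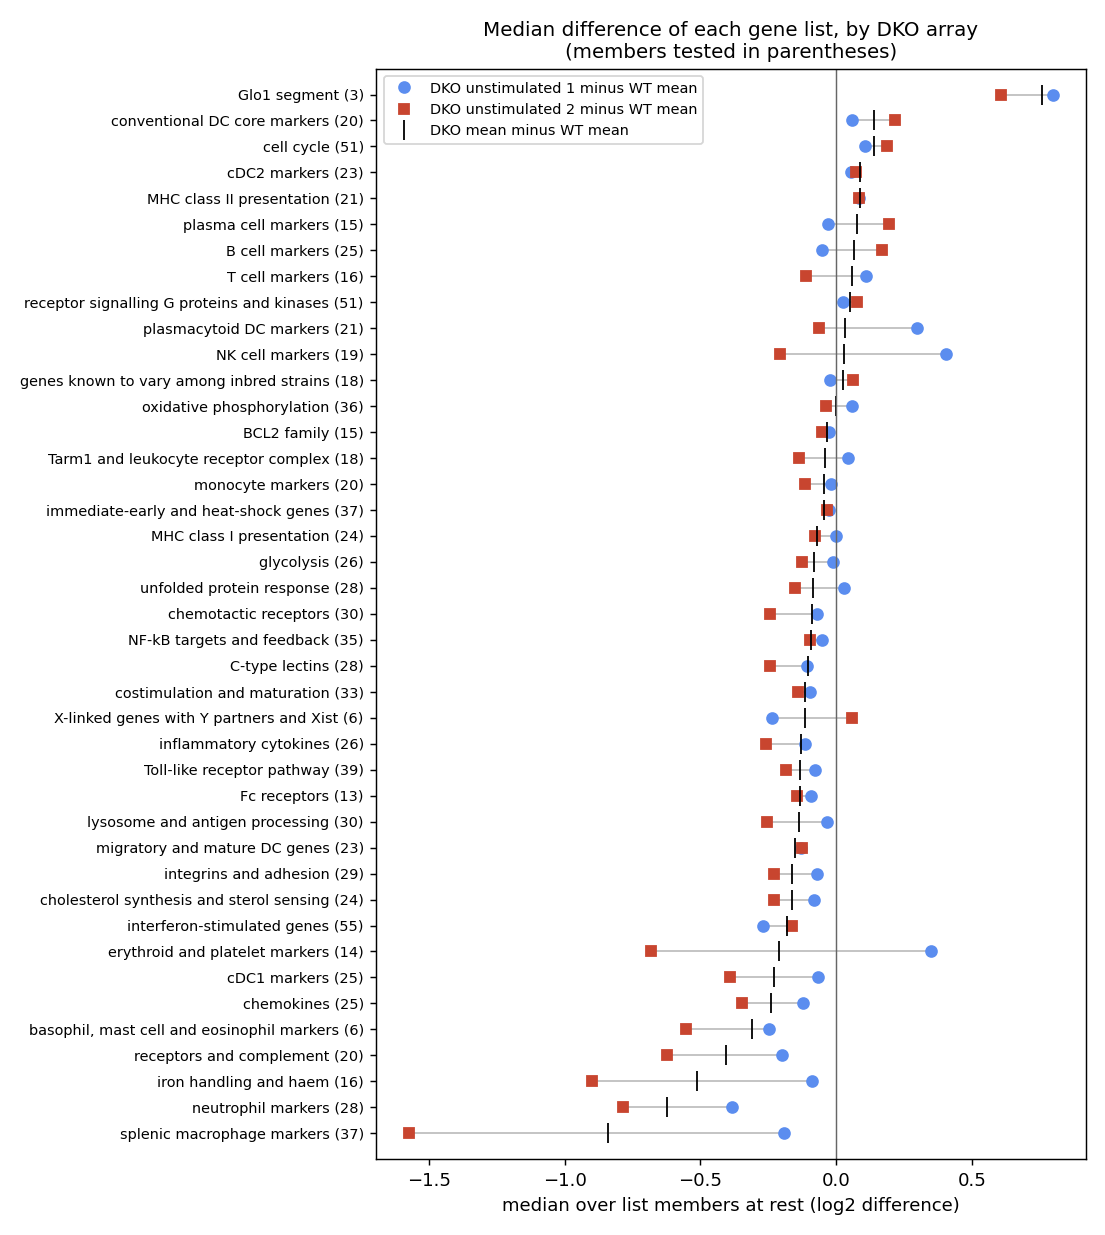
Median log2 difference at rest over the tested members of each gene list except the Y-linked genes, for DKO unstimulated 1 minus the WT mean (blue circles), DKO unstimulated 2 minus the WT mean (red squares) and the mean of both (black ticks). The macrophage and iron-handling lists have the widest gap between the 2 DKO arrays among the lists below -0.4, and the cell cycle and core DC lists are above 0 in both.

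The genes with the smallest p in each direction show the size that the design resolved, since the median SE was 0.17 and the median half-width of the 95% interval 0.37. Among those higher in DKO and not called, Prrt2, a synaptic protein, measured 5.98 and 5.87 in WT and 6.64 and 6.63 in DKO (0.71 ± 0.13, adjusted p = 0.391). Irgc1, an interferon-inducible GTPase family member, measured 5.59 and 5.65 against 6.20 and 6.39 (0.68). Lyz1, a lysozyme, measured 6.93 and 6.83 against 7.91 and 7.90 (1.02 ± 0.24, adjusted p = 0.833). Lyz1 has a near copy in Lyz2, so its signal may be shared. Pepd, a dipeptidase, had a difference of 0.80, Slain1 of 0.76 (-0.32 in its other probe set), Cdk5rap1 of 0.67, Serpini1 of 0.64, Slc25a40 of 0.63 and the DNA repair gene Xrcc3 of 0.62.

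Among those lower and not called, Dhrs7, a dehydrogenase, measured 7.75 and 7.47 in WT and 6.68 and 6.87 in DKO (-0.83 ± 0.18, adjusted p = 0.646). Pilrb2, a paired activating receptor gene, measured 6.97 and 6.87 against 5.95 and 5.96 (-0.96 ± 0.21, adjusted p = 0.656). Tmx1, a thioredoxin of the endoplasmic reticulum, measured 8.991 and 8.997 against 8.433 and 8.219 (-0.67 ± 0.14). Slc5a11, a sugar transporter, had a difference of -0.72, the phosphatase Dusp7 of -0.65, the vesicle protein Vamp5 of -0.60 and the deglycosylating enzyme Engase of -0.56. From the list of genes known to vary between inbred strains, Klra2, a Ly49 receptor, measured 5.945 and 5.9999 against 5.078 and 3.60 (-1.63), and Ide, which degrades insulin, measured 9.79 and 10.12 against 9.43 and 9.41 (-0.54).

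The same genotypes were compared after CpG in 6 other arrays. There, 16 genes were called (0.12%), with 2 to 267 when 1 array was left out (2 without DKO CpG 2, WT CpG 1 or WT CpG 2, and 267 without DKO CpG 1), and 14.3% of all genes (1918) had an unadjusted p under 0.05. Of the 619 genes at an unadjusted p under 0.05 at rest, 413 (66.7%) had the same sign after CpG, beside 57.4% of all tested genes. At that threshold in both conditions, 130 genes had the same sign and 20 the opposite sign. Among the genes with small p at rest, Dhrs7, Pilrb2, Engase and Vamp5 had differences of 0.03, -0.04, 0.05 and -0.00 after CpG.

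With the Y-linked signal as a covariate, 407 of the 13371 tested genes were called at rest, 58 higher and 349 lower. Of the DKO arrays at rest, only DKO unstimulated 2 has the low Y-linked level of the WT arrays. The adjusted difference therefore leans on that array. The 349 had median differences from the WT mean of -0.24 in DKO unstimulated 1 and -1.08 in DKO unstimulated 2. Among them were 32 of the 37 macrophage markers, beside 349 of all 13371 tested genes. Among DKO arrays, DKO unstimulated 2 and DKO CpG 3 had Y-linked means of 3.95 and 3.95 and macrophage means of 7.83 and 7.58. Both are numbered above 20. DKO unstimulated 1, DKO CpG 1 and DKO CpG 2, all numbered below, had Y-linked means of 7.34, 7.22 and 6.88. Their macrophage means were 9.07, 9.09 and 9.19. Within DKO, Y-linked signal, title series and macrophage level therefore split the arrays alike and cannot be told apart. Among WT arrays, Y-linked means were 3.72 to 4.25 and macrophage means 8.90 to 9.39. WT CpG 3, the only WT array numbered above 20, had 3.98 and 9.03. Why the macrophage level differed among the DKO arrays was not tested. Fitting the 4 arrays at rest alone called 12 genes, 1 higher and 11 lower.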

How the data were processed

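Expression was read from the deposited table of log2 intensities per probe set (41345 probe sets, 10 arrays, no missing values), values that the authors produced by RMA using the Expression Console software of Affymetrix, per the submitters' processing notes. RMA corrects background, equalises the arrays' distributions and summarises probes, so levels of different genes are not comparable. Not given in the sources used here are tool versions, the build and whether all arrays were normalized together. The labelling text names a kit for a first batch without saying which samples it holds. Array medians were 5.50 to 5.56, no detection calls were used, and the number of arrays limits the precision.

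Of the probe sets, 23521 had 1 symbol in the platform annotation, 1814 several and 16010 none, and only the first were named. Symbols and gene order came from RefSeq (GRCm38.p6). All 10 arrays entered 1 linear model of 4 group means (WT unstimulated 2, DKO unstimulated 2, WT CpG 3, DKO CpG 3) with limma 3.58.1 (lmFit, eBayes, R 4.3.3). The fit had 6 residual degrees of freedom and a prior worth 4.49. P-values were two-sided and adjusted by Benjamini-Hochberg over 13371 genes, and called means an adjusted p below 0.05. An SE follows each ±. An unadjusted p under 0.05 is used only to count and order genes. Gene lists (42) were described by counts and medians without a set test. The pipeline was tested on simulated data.

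The members and lists were chosen with earlier results of these data known. Named were the targeted and sex-linked genes and the 15 smallest p in each direction (predicted genes, variable segments and small RNAs only counted). Groups apart were required only of called genes, and none of those named by p was called. Also named were up to 4 members with the smallest p per list, the Glo1 segment, Tarm1 and Pirb. Other genes, among them DC, neutrophil and macrophage markers shown by level, genes beside the targeted loci, and those the text says so of, were named after their values were seen. Alternatives were other filters, probe sets, normalizations, variance models, covariates and leaving out each array. Figures were drawn with matplotlib 3.10.9.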

Additional observations from a re-analysis of the deposited data

Results flagged for a closer look

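Tarm1 was the gene whose genotype difference itself differed between conditions. The difference after CpG minus that at rest was -2.25 (adjusted p = 0.049, limma), with -0.02 at rest and -2.27 after CpG.

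The 7 genes that follow were named above for a small p at rest. Their DKO arrays lay apart from the WT arrays in opposite directions at rest and after CpG, while the interaction did not pass. No such count over all tested genes is given, so nothing is read from their number. Of all 13371 tested genes, 20 had opposite and 130 the same sign at an unadjusted p under 0.05 (limma) in both conditions. Cd59a had a difference of -0.85 at rest and 0.21 after CpG (interaction adjusted p = 0.635, limma). Prrt2 had 0.71 and -0.32 (0.509), Pdcd1lg2 0.68 and -0.67 (0.509), and Tmx1 -0.67 and 0.26 (0.635). Dusp7 had -0.65 and 0.30 (0.635), Cd36 -0.50 and 0.66 (0.697), and Bank1 -0.57 and 0.42 (0.635). The values in these parentheses are adjusted interaction p-values from the same limma fit.

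Probe sets without a gene symbol belong to no comparison above. Among 7803 of them tested, 2 were called higher in DKO at rest. Probe set 17549062 measured 5.61 and 5.58 in WT and 9.40 and 8.67 in DKO (3.44 ± 0.21, adjusted p = 5.55e-04, limma) and differed by 3.05 after CpG. Probe set 17549150 measured 5.53 and 5.08 in WT and 9.42 and 9.20 in DKO (4.00 ± 0.17, adjusted p = 3.32e-05, limma) and differed by 3.68 after CpG. Both lay above every WT array in all 5 DKO arrays, and what they detect is not given in the sources used here.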

How the results depend on the processing

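Gm15448 was called at rest in each of 22 alternatives that kept it among the tested genes, with differences of -4.47 to -4.83. Requiring a value above the median in all 10 arrays removed it from testing and left 0 calls (limma, 485 genes with an unadjusted p under 0.05). The count of 1 became 407 with Y-linked signal as a covariate, 12 with the arrays at rest only, 6 with the macrophage level as a covariate and 2 with title series as a block, and 1 to 2 when leaving out 1 array (2 without DKO CpG 2 or without WT CpG 3). After CpG the 16 calls became 800, 147 and 296 with the Y-linked, macrophage and title settings, 52 above the median in 10 arrays, and 2 to 267 when leaving out 1 array (267 without DKO CpG 1). Averaged over stimulation the 13 calls became 913, 21 and 50, 3 with the neutrophil level as a covariate, and 1 to 71 when leaving out 1 array (71 without DKO CpG 1). The single interaction call became 0 with the neutrophil level, the title series, every probe set tested or repeated quantile normalization, and 0 to 1 when leaving out 1 array (limma, 550 to 1124 genes with an unadjusted p under 0.05 where it was 0). The causes were not tested. The median size of the difference within 40 genes of C3ar1 (0.22) was 0.12 within 100. Sign changes among named genes were few. With the neutrophil level as a covariate Mmp8 became 0.0213, Hdc 0.23 and Hp 0.42. With the macrophage level Cd5l became 0.0734 and Csf1r 0.0579. With the Y-linked signal Tarm1 became 0.0701, Eif2s3y -0.0278 and Xist 0.13. Mmp8, Hdc, Cd5l, Csf1r and Eif2s3y are part of the covariate they were adjusted for. Their moves toward 0 are therefore partly built in, as are those of the list medians fitted with their own level. The other probe set of Slain1 gave -0.32, also as the lowest-mean probe set. Leaving out 1 array gave -0.0818 to 0.0441 for Tarm1 and -6.16 to 0.0293 for Xist. The macrophage list median of -0.84 was -1.57 without DKO unstimulated 1 and -0.19 without DKO unstimulated 2, -0.43 with title series as a block, -0.14 with the neutrophil level, -1.64 with the Y-linked signal and 0.0579 with its own level, and the neutrophil list median of -0.62 was -0.17 with title series as a block, -0.39 with no filter, -1.07 with the Y-linked signal and 0.18 with its own level as a covariate. No paired analysis was possible because the labels give the samples no replicate numbers.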
